A study of Mus musculus with 2 samples.

Results

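Cycling microglia were 323 of the 17043 barcodes that passed the limits on cells, 203 from the SMA library and 120 from the Con library. The members were chosen by measured values, so the genes of that choice are given as a description only. A barcode was kept with 200 to 4000 genes and under 10% mitochondrial UMIs (unique molecular identifiers, each marking 1 captured RNA molecule). It counted as a microglial cell with a UMI in at least 3 of 7 microglial genes (P2ry12, Cx3cr1, Tmem119, Siglech, Gpr34, Selplg and Crybb1) and in at most 1 of 7 genes of other cells (Mrc1, Cd163, Lyve1, F13a1, Pdgfra, Aqp4 and Cldn5). It counted as cycling with at least 3 summed UMIs of 10 genes (Top2a, Mki67, Cdk1, Birc5, Ccnb1, Cenpf, Ube2c, Hmmr, Tpx2 and Nusap1). The members were compared with the microglia that held 0 UMIs of these 10 genes, 650 in SMA and 673 in Con, called non-cycling microglia below.

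Whole spinal cords of FVB mice at postnatal day 4 had been profiled by droplet single-cell RNA-seq of 3′ ends. SMA mice (mSmn-/-, hSMN22tg/0) lack intact mouse Smn and carry the human SMN2 transgene, and serve as a severe model of spinal muscular atrophy. Con mice (mSmn+/-, hSMN22tg/0) kept 1 intact allele and carried the same transgene, so neither group was wild type. Per the study's methods, littermates were pooled into 1 library per group, so differences between groups had no replicate to be measured against, and every interval given (95%) covers counting error only.

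Microglia are the resident macrophages of the central nervous system. They descend from yolk sac precursors, settle in the neural tube before birth and reach their adult number by local division in the first weeks of life, under signals through the receptor Csf1r. A dividing cell first licenses and copies its DNA, with MCM helicase, polymerases and nucleotide-making enzymes. It then builds up mitotic cyclins, kinases, kinetochore proteins and kinesins, whose promoters carry a short element, the cell cycle genes homology region (CHR), bound by the MuvB complex.

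The libraries share barcodes, and many barcodes hold RNA of 2 cell types, which bears on every result below. The libraries had 8163 barcodes in common, and the copies of those barcodes in SMA (6509 within the limits) were left out of the members. Keeping them would have added 45 SMA members, for 248 in all. The copies in Con were kept, and 98 of the 120 Con members carried a barcode that SMA also lists. Of all 25419 deposited Con barcodes, 8163 were shared. The share among Con barcodes within the limits was not computed, so nothing particular to the members is read from this count. Con kept 22 members with a barcode of its own.

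The members had a median of 8376 UMIs and 2625 genes in SMA and of 7623 UMIs and 2621.5 genes in Con. The non-cycling microglia had 6205.5 and 6463 UMIs. The summed members held 1770381 UMIs in SMA and 1028927 in Con. Levels are given as CPM, the UMIs of a gene per 1000000 UMIs of the summed cells. The targeted gene, Smn1 (ENSMUSG00000021645, a protein-coding gene on the plus strand of chromosome 13, 100124852 to 100137690 in GRCm38), stood at 55.9 CPM (99 UMIs) in SMA members and 56.4 CPM (58 UMIs) in Con members. These are 3′ tags that need not cover the altered part of the allele, so the labels could not be checked by this gene.

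Globin marked the most plainly mixed barcodes. Globin genes of red blood cells made up at least 5% of the UMIs of 18 SMA members (8.87%) and 13 Con members (10.8%), and of 16 (2.46%) and 28 (4.16%) non-cycling microglia. Among SMA microglia with at least 20% globin UMIs, 16 of 36 were members (44.4%, exact Clopper-Pearson interval 27.9 to 61.9), against 179 of 1123 with under 1% globin (15.9%, 13.8 to 18.2). In Con these were 10 of 37 (27.0%, 13.8 to 44.1) and 101 of 950 (10.6%, 8.74 to 12.8). In both libraries the share was higher in globin-rich barcodes and the intervals did not meet, and the part of mixed barcodes in the members was not tested.

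Markers of neural cells were present too. At least 3 of 6 oligodendrocyte markers were found in 48 SMA members (23.6%) and 53 Con members (44.2%), against 135 (20.8%) and 255 (37.9%) non-cycling microglia. At least 3 astrocyte markers were found in 38 (18.7%) and 28 (23.3%) members, against 129 (19.8%) and 107 (15.9%) non-cycling microglia. At least 3 precursor markers were found in 18 (8.87%) and 22 (18.3%), against 57 (8.77%) and 44 (6.54%) non-cycling microglia. Monocyte and lymphocyte lists were near 0, at 2.26 and 0.56 CPM in SMA members and 4.86 and 0 in Con members, while the list of 7 border-associated macrophage genes stood at 58.2 and 61.2 CPM, with Cd163, Lyve1 and F13a1, which the rule limits, at 0 in both. For this reason most results are given a further time over unmixed members, a choice made after the data were seen. These had under 5% globin UMIs and under 3 markers of each of 12 lists of other cell types, and were 101 of 203 in SMA and 43 of 120 in Con. Genes of border-associated macrophages were not absent from them. That list stood at 87.5 CPM in SMA and 120 in Con unmixed members, against 82.1 and 38.9 in non-cycling microglia under the same limits.

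Genes that the rule did not use bear on the label. Csf1r was found in 92.6% of SMA and 87.5% of Con members, and Trem2, a lipid-sensing receptor, in 96.1% and 87.5%. In cycling oligodendrocyte precursors, chosen by the same 10 cycling genes, Csf1r stood at 5.06 and 4.21 CPM, against 1071 and 997 CPM in the members. The detection of the rule genes themselves is fixed in part by the choice of members. Of the microglial rule genes, P2ry12, a purinergic receptor, was found in 93.6% of SMA and 93.3% of Con members. Cx3cr1, the fractalkine receptor, was found in 94.1% and 87.5%, and Siglech, a sialic acid-binding lectin, in 66.5% and 64.2%. Of the cycling rule genes, Cdk1, the kinase that drives entry into mitosis, was found in 73.9% and 67.5%. Ube2c, the ubiquitin-conjugating enzyme of the anaphase-promoting complex, was found in 71.9% and 75.8%, and Birc5 (survivin), of the chromosomal passenger complex, in 70.0% and 70.8%. Top2a, which untangles DNA, was found in 59.1% and 45.8%, and Mki67, which coats mitotic chromosomes, in 52.7% and 50%.

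Many promoters of such genes are known to carry a CHR, a CCAAT box or an E2F site, but not all do. RefSeq promoters (GRCm38.p6, 250 bases before to 50 after the start) were given for 9 of the 10 cycling rule genes, all but Tpx2. They are printed for 4 rule genes with a CHR and 2 replication genes with an E2F site, as examples of the 2 waves of genes described below. Capitals mark the CHR (TTTGAA or its reverse complement TTCAAA) in the first 4 and the E2F site (TTTGGCGC, TTTCGCGC or TTTCCCGC, or a reverse complement, overlapping matches included) in the last 2. Cdk1 holds both elements, since an E2F site (TTTCGCGC) starts at base -131, left here in lower case. It was the 1 promoter of the 9 rule genes with an E2F site.
Cdk1, chr10:69352863-69353162, minus strand: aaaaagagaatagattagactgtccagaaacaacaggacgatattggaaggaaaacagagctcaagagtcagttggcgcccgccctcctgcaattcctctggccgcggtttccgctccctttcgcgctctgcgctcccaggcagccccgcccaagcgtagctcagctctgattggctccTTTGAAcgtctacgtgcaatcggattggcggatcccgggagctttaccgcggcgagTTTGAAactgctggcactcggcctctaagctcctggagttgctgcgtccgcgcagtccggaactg
Cenpf, chr1:189688037-189688336, minus strand: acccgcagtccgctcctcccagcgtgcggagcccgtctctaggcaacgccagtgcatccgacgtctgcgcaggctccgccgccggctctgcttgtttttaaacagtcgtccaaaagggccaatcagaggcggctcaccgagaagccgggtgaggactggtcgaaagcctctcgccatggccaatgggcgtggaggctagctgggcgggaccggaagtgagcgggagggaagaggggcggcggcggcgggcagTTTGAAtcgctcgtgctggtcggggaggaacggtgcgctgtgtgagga
Ube2c, chr2:164769679-164769978, plus strand: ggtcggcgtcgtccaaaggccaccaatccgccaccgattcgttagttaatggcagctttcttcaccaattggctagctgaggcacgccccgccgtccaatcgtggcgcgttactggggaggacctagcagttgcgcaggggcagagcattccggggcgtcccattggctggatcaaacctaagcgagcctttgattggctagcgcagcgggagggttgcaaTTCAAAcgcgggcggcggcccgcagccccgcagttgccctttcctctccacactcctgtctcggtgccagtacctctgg
Top2a, chr11:99024140-99024439, minus strand: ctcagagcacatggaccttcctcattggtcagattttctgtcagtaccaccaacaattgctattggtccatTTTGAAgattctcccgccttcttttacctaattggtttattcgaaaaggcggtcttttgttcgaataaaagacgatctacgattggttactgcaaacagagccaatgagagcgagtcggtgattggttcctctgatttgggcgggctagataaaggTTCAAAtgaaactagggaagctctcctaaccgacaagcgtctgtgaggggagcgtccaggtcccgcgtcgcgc
Mcm5, chr8:75109259-75109558, plus strand: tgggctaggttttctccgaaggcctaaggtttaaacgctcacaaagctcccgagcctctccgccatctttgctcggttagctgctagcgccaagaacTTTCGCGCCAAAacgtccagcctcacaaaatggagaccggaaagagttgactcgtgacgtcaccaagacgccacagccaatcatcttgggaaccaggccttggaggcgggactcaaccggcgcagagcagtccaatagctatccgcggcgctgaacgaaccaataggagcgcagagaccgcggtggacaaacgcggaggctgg
Mcm6, chr1:128359656-128359955, minus strand: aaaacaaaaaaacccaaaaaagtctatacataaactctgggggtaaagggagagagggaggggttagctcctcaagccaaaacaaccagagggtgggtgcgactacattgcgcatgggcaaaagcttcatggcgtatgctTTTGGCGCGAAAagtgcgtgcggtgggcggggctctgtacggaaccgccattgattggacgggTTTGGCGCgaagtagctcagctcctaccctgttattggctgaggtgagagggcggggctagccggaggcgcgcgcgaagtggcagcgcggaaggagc

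A CHR was found, on either strand, in 6 of the 9 rule promoters, and in 37 of the 57 mitosis genes with a promoter (64.9%), against 20.2% of the 27025 genes with a promoter. In 7 of 36 replication genes (19.4%) and 4 of 29 microglial genes (13.8%) the share was near that of all genes. E2F sites had the opposite division, with 15 of 36 replication genes (41.7%), 7 of 57 mitosis genes (12.3%) and 2.12% of all genes. The CCAAT box, bound by NF-Y, was in 38 of 57 mitosis promoters (66.7%), in 22 of 36 replication promoters (61.1%) and in 41.1% of all promoters. The site GAGGAAGT of PU.1, the factor encoded by Spi1, was in 1 of 29 microglial promoters (3.45%) and 3.69% of all. A match is a description of letters and not a shown site of binding.

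In the members, mitosis genes stood far above their level in non-cycling microglia, and replication genes stood above it by less. This contrast used the same cells and the same kind of genes as the choice of members, so it is a description. The 68 mitosis genes (4 lists) summed to 4527 CPM in SMA members and 346 in non-cycling SMA microglia, and to 4063 and 330 CPM in Con, log2 ratios of 3.71 and 3.62. The 44 replication genes (licensing and DNA synthesis) summed to 2377 and 695 CPM in SMA and to 2294 and 606 in Con, log2 ratios of 1.77 and 1.92. Among genes with at least 100 UMIs in the members, 43 of 44 mitosis genes and 23 of 26 replication genes were over 2-fold higher than in non-cycling microglia in both libraries, against 163 of 3560 genes in all (4.58%). No gene of these lists was over 2-fold lower in both, and 1 of 3560 genes was (0.0281%).

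Of the mitotic cyclins, Ccnb2, partner of Cdk1, stood at 175 and 146 CPM in SMA and Con members, against 3.03 and 2.32 in non-cycling microglia. Ccna2, which acts in S phase and early mitosis, stood at 124 and 130 against 3.26 and 1.39. The kinase Aurkb of the chromosomal passenger complex stood at 101 and 85.5 against 3.73 and 1.86, and Plk1, which acts through much of mitosis, at 55.9 and 68.0 against 0.93 and 0.46. These 4 genes were rare in non-cycling microglia of both libraries, which the choice of those cells favours. Their list summed to 1033 and 904 CPM in the members, against 1510 and 1218 in cycling precursors.

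At the kinetochore, Cenpa, the centromeric histone, stood at 380 CPM in SMA members and 305 in Con members. Cdca8 (borealin) stood at 193 and 204 CPM, and the kinesin Cenpe, which moves chromosomes to the equator, at 101 and 77.8. The checkpoint protein Bub3, at 214 and 189 CPM, was also present in non-cycling microglia, at 99.1 and 101 CPM. Among condensin subunits, which fold mitotic chromosomes, Smc2 stood at 208 and 179 CPM against 13.5 and 14.2. The midzone protein Prc1 stood at 125 and 101 CPM against 2.80 and 1.16.

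Replication genes varied in their level outside the members. Pcna, the sliding clamp of DNA polymerases, stood at 250 and 216 CPM in SMA and Con members and at 138 and 114 in non-cycling microglia. Rrm2, the regulated subunit of ribonucleotide reductase, stood at 158 and 155 CPM against 4.66 and 3.72, and Tk1, thymidine kinase, at 87.0 and 92.3 against 3.96 and 3.02. The helicase subunit Mcm3 stood at 76.8 and 75.8 CPM against 31.2 and 26.9. The licensing inhibitor Gmnn (geminin) stood at 80.2 and 69.0 CPM against 12.6 and 9.76.

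The rule favoured late phases. Most of its 10 genes are known to peak in G2 and mitosis, and microglia with many replication UMIs were often left out. Of 253 SMA microglia with at least 10 replication UMIs, 117 were members and 136 were not, and 73 of those 136 held 0 UMIs of the 10 cycling genes. In Con, 61 of 149 were members, and 50 of the other 88 held 0. The non-cycling microglia thus included cells with many replication UMIs.

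Members spread over the phases. Replication genes made up 34.4% of the replication and mitosis UMIs of SMA members (4208 beside 8014 mitosis UMIs, interval 33.6 to 35.3) and 36.1% of those of Con members (2360 beside 4181, 34.9 to 37.3). Over unmixed members these were 33.0% (31.8 to 34.1) and 37.1% (35.1 to 39.2), and those intervals did not meet. Cells are not replicates, and the share of single cells was wide. Of 171 SMA members with at least 10 such UMIs, the share was at least 50% in 52 cells, 25 to 50% in 47 and under 25% in 72, with a median of 30.0%. Of 108 Con members these were 37, 24 and 47 cells, with a median of 29.5%. Cells between 40 and 60%, near the limit of 50%, numbered 25 and 21, so these classes are ranges and not types. Cycling oligodendrocyte precursors, chosen by the same 10 genes, had 35.0% (SMA) and 39.4% (Con), and cycling astrocytes 35.3% and 37.7%, so the share was lower in SMA in all 3 kinds of cell.

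**Figure D1:**
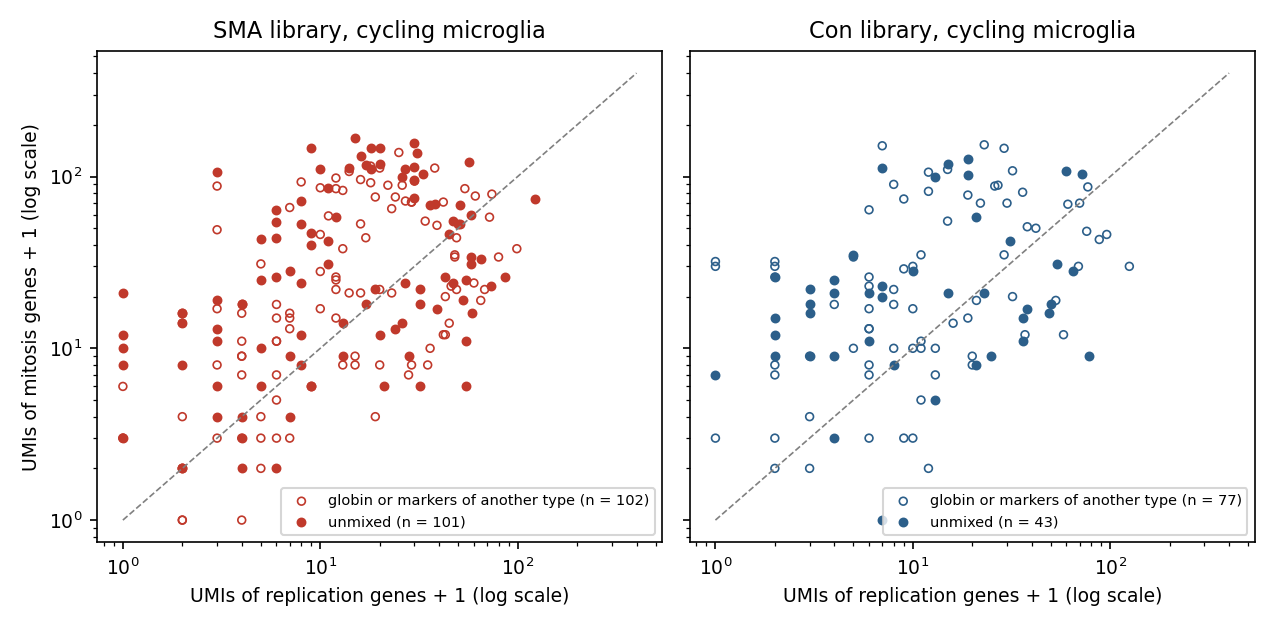
UMIs of 44 replication genes (x axis) against UMIs of 68 mitosis genes (y axis), both plus 1 on log scales, in each member of the SMA (left) and Con (right) library, with filled points for unmixed members and the dashed line where both are equal. Members lie on both sides of the line in each library, with 52 of 171 SMA members and 37 of 108 Con members with at least 10 such UMIs at or below it.

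Values beside the threshold are a description. The 40 SMA microglia with exactly 3 cycling UMIs, just inside it, had 903 CPM of mitosis genes and 1613 of replication genes. The 87 with exactly 2 UMIs, just outside, had 539 and 1015 CPM. In Con the 18 cells just inside had 960 and 2000 CPM and the 53 just outside 585 and 803 CPM. At the upper end, 51 SMA and 27 Con members held over 30 cycling UMIs, with 8698 and 8743 CPM of mitosis genes. Globin of at least 5% was found in 8 of the 40 SMA and 3 of the 18 Con members with exactly 3 UMIs, against 2 of 51 and 1 of 27 at the upper end. The part of mixed barcodes in the members near the threshold was not tested.

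Members were 17.0% of SMA microglia (203 of 1193, interval 14.9 to 19.3) and 11.3% of Con microglia (120 of 1059, 9.48 to 13.4). A deeper cell reaches 3 UMIs more readily, so each cell was also thinned to 1000 UMIs, which left out 1 SMA and 8 Con microglia. At that depth 6.21% of SMA microglia (74 of 1192, 4.91 to 7.73) and 4.00% of Con microglia (42 of 1051, 2.90 to 5.36) met the rule, a log2 ratio of 0.64 (0.10 to 1.17). Over unmixed microglia the shares were 6.21% (42 of 676) and 4.62% (22 of 476), a log2 ratio of 0.43 (-0.30 to 1.15), and at 2000 UMIs 8.55% and 5.29%, 0.69 (0.02 to 1.37). Shared barcodes had been left out of SMA only. With them kept, 13% of SMA microglia were members at full depth (11.5 to 14.6), and this interval overlapped that of Con. The thinned ratio was then 0.55 (0.04 to 1.05). The thinned ratio was 0.33 (-0.18 to 0.83) without globin-rich microglia, 0.46 (-0.02 to 0.94) and 0.24 (-0.33 to 0.81) with at least 2 or 4 of the 7 microglial genes, and 0.041 (-0.74 to 0.82) with at least 5 cycling UMIs. The share was higher in SMA in each of these, but the interval of the thinned ratio held 0 in these 4 and over unmixed microglia, and there was no replicate.

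Ciliated ependymal cells and differentiating oligodendrocytes, known mostly to have left the cell cycle, were set beside microglia on the same measure. Both were picked by their markers, the ependymal cells with no limit on markers of other cells. Single cells held up to 115 (ependymal, Con) and 151 (oligodendrocyte, SMA) cycling UMIs. Whether cycling or mixed barcodes are among them was not tested, so their shares are not a shown floor. Thinned to 1000 UMIs, 3.39% of SMA ependymal cells (15 of 443, 1.91 to 5.52) and 3.37% of Con ependymal cells (7 of 208, 1.36 to 6.81) met the cycling rule. Of differentiating oligodendrocytes 4.59% (2.96 to 6.75) and 3.38% (2.41 to 4.62) did. Median depths before thinning were 6713 UMIs for SMA microglia and 6775 for Con microglia, and 6093 and 6437 for ependymal cells. The Con share of microglia was therefore not distinguishable from that of these types at this depth, and the SMA interval overlapped those of both types. Barcodes with at least 50% globin UMIs, which leave few other UMIs at this depth, stood at 1.62% (0.65 to 3.30) in SMA and 0.98% (0.47 to 1.80) in Con. At 2000 UMIs they stood at 4.2% and 5.67%, against 9.60% and 5.74% of microglia, and at full depth at 28.8% and 33.2%, above microglia. At full depth, 8.05% of SMA microglia (6.57 to 9.74) and 5.00% of Con microglia (3.77 to 6.50) held at least 11 cycling UMIs, against 5.63% (3.68 to 8.20) and 3.85% (1.67 to 7.44) of ependymal cells and 6.67% (4.69 to 9.15) and 4.67% (3.52 to 6.06) of oligodendrocytes. Over unmixed microglia these were 7.24% (5.40 to 9.46) and 3.51% (2.06 to 5.56). All of these intervals overlapped within each library.

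Precursors and astrocytes were compared at the same depth. Cycling cells were 10.8% of SMA and 8.60% of Con oligodendrocyte precursors, a log2 ratio of 0.33 (0.10 to 0.56), and 7.40% and 6.19% of astrocytes, 0.26 (-0.01 to 0.52). At full depth these ratios were 0.07 (-0.07 to 0.22) and -0.07 (-0.22 to 0.09), and that of microglia 0.59 (0.28 to 0.89). At 2000 UMIs they were 0.16, 0.08 and 0.74 (0.30 to 1.18). The microglial interval thus held both other ratios at 1000 UMIs and neither at 2000 UMIs nor at full depth. At 2000 UMIs it still overlapped the interval of precursors (-0.02 to 0.34), but not that of astrocytes (-0.13 to 0.29). Over unmixed microglia the interval at 2000 UMIs (0.02 to 1.37) held both other ratios, and that at full depth (0.26 to 1.23) neither. The full-depth ratio of microglia was taken with shared barcodes left out of SMA only. With them kept, the full-depth shares were 13% (11.5 to 14.6) and 11.3% (9.48 to 13.4). At 1000 UMIs the intervals of precursors lay above those of microglia in each library.

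**Figure D2:**
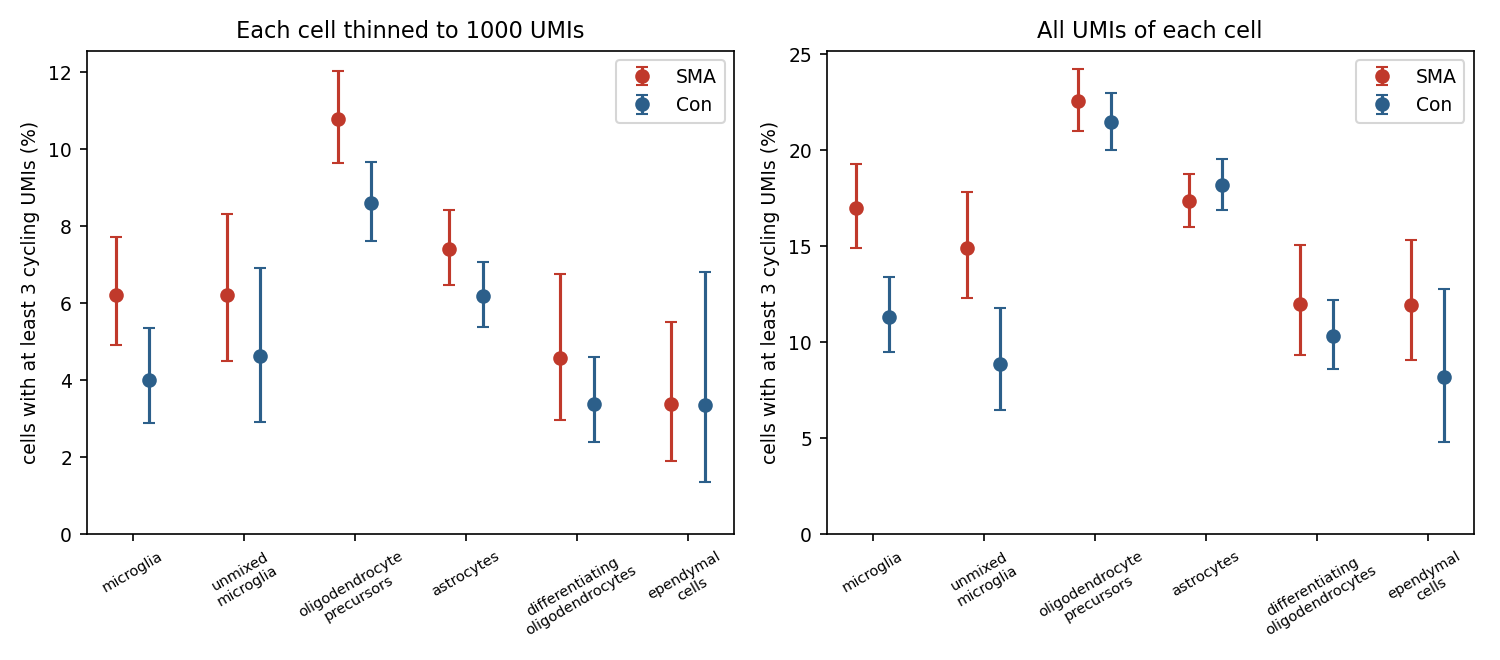
Share of cells with at least 3 UMIs of the 10 cycling genes (y axis, percent) in microglia and 4 other cell types (x axis), with each cell thinned to 1000 UMIs (left) or at full depth (right), where points are libraries and bars exact 95% intervals. Microglia at 1000 UMIs stood at 6.21% in SMA and 4.00% in Con, beside 3.39% and 3.37% in ependymal cells.

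Identity genes of microglia stayed high in the members. The 7 rule genes summed to 3861 CPM in SMA members against 4910 in non-cycling microglia, and to 3811 against 5557 in Con, log2 ratios of -0.35 and -0.54. A further 18 surface and enzyme genes outside the rule summed to 31618 against 39810 CPM in SMA and 29634 against 43452 in Con, log2 ratios of -0.33 and -0.55. Over unmixed cells these were -0.24 and -0.47. Of 17 such genes with at least 100 UMIs, 0 were over 2-fold lower in both libraries. Since 0.0281% of all genes were, nothing is read from that count. Cell-cycle and globin RNA took a larger share of the members' UMIs, and its part in the lower CPM was not tested.

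Cst3, a secreted protease inhibitor and the highest of these genes, stood at 16938 CPM in SMA members and 22403 in non-cycling microglia, and at 15848 and 23769 in Con. Csf1r, the receptor on which microglial survival rests, stood at 1071 and 1257 CPM in SMA and at 997 and 1416 in Con. Trem2 stood at 989 and 1135 CPM in SMA and at 681 and 989 in Con. The transcription factor Spi1 (PU.1) stood at 390 and 466 CPM in SMA and at 428 and 573 in Con, and Irf8 at 197 and 185 in SMA and at 199 and 257 in Con. Of these genes, Irf8 in SMA was the one not lower in the members.

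Several other microglial programmes were also lower. The phagocytic list (Apoe, Ctsd, Ctsb and others) had log2 ratios of -0.24 in SMA and -0.44 in Con, complement -0.25 and -0.51, and immediate early and heat-shock genes -0.38 and -0.60. Over unmixed members the phagocytic list stood at -0.08 and -0.10. Chemokines and inflammatory genes stood at -0.25 and -0.40, but at -0.29 and 0.10 over unmixed members, so their direction in Con turned. Interferon response genes were higher in the members, at 0.25 and 0.32, and at 0.84 and 1.03 over unmixed members. Chromatin and tubulin genes of dividing cells were higher, with 12 of 14 over 2-fold in both libraries, against 4.58% of all genes. Among them Stmn1 (stathmin), which frees tubulin from microtubules, stood at 641 and 507 CPM against 73.4 and 65.3, and Hmgb2 at 1238 and 982 against 249 and 235.

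The SMN complex, which builds the Sm rings of splicing particles and is the machinery that this model lacks in part, was also higher in the members. Its 9 genes summed to 273 CPM in SMA members against 197 in non-cycling microglia and to 243 against 175 in Con, a log2 ratio of 0.47 in each library. The 8 Sm core proteins summed to 1992 against 1464 CPM in SMA and 1756 against 1194 in Con, log2 ratios of 0.44 and 0.56. Over unmixed members the complex stood at 0.77 and 0.68 and the Sm proteins at 0.60 and 0.71. In cycling precursors the complex stood at 0.16 and 0.20 and the Sm proteins at 0.47 and 0.33, and in cycling astrocytes these were at 0.34 and 0.23 and at 0.55 and 0.38. Snrpd1 stood at 321 CPM in SMA members against 182 and at 279 against 139 in Con, and Gemin6 at 22.6 against 6.53 and 21.4 against 4.41. Between the libraries, the Sm genes had a median log2 ratio of 0.20 over 7 genes, beside 0.06 for all 3560 genes.

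**Figure D3:**
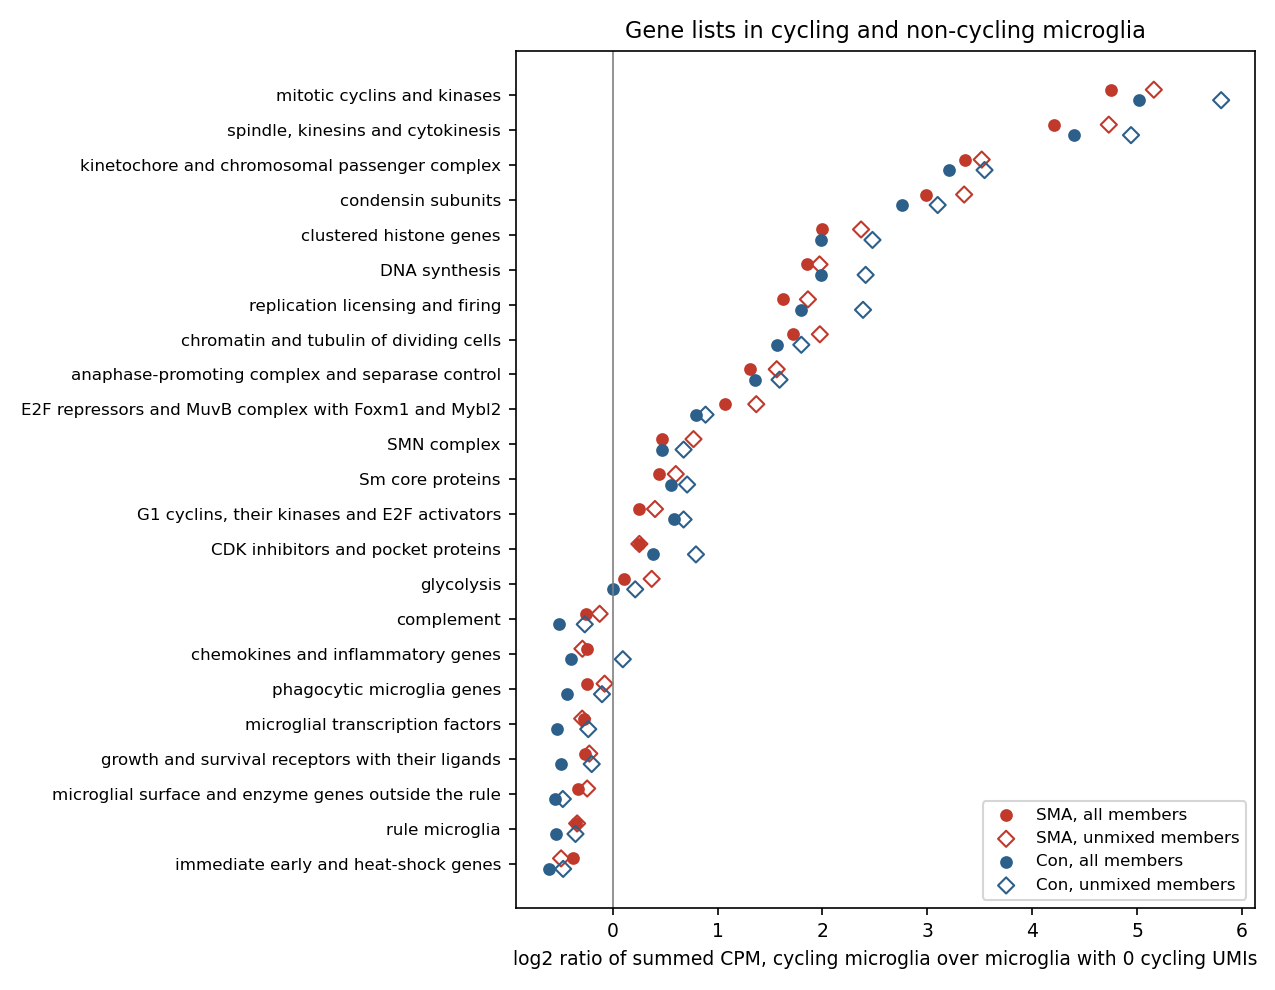
Log2 ratio of summed CPM of members over non-cycling microglia (x axis) for 23 gene lists (y axis), with filled circles for all members and open diamonds for unmixed members of each library. Mitotic lists lie at 2.76 to 5.02 over all members, replication lists at 1.63 to 1.98, and microglial identity lists between -0.55 and -0.27.

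Genes outside the lists were ranked by the smaller of their ratios of members over non-cycling microglia in the 2 libraries. Clustered histone genes, a list drawn up later, were kept in this ranking. The highest included Hist1h1b, Cdca2, Hist1h2ap, Esco2, Pclaf, Cdkn3, Pimreg, Cdca3, Shcbp1, Hist1h2ae and Rad51ap1. Pclaf, a Pcna-associated factor, stood at 385 and 346 CPM in SMA and Con members against 10.5 and 5.34. Esco2, an acetyltransferase that sets cohesion in S phase, stood at 57.1 and 35.0 CPM against 0.23 and 0.70. Cdkn3, a phosphatase that acts on cyclin-dependent kinases, stood at 72.3 and 55.4 CPM against 2.33 and 0.46. The linker histone Hist1h1b stood at 98.3 and 72.9 CPM against 0.47 and 0.46.

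The 8 genes with the lowest ratio were Plaur, Csrnp1, Egr3, Trib1, Acaa1a, Rrad, Sertad1 and Sox4. Plaur, the urokinase receptor, was the 1 gene over 2-fold lower in both libraries, at 48.6 and 25.3 CPM against 100 and 76.0, log2 ratios of -1.04 and -1.59. Egr3, an immediate early transcription factor, stood at 90.4 and 69.0 CPM against 174 and 154. Sertad1 stood at 111 and 93.3 CPM against 203 and 195, and Sox4 at 120 and 142 against 218 and 253. Over unmixed members Plaur stood at -1.57 and -1.59, and Egr3 at -1.03 and -0.52.

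Between the libraries, the members' cell-cycle genes differed little. Mitosis genes had a median log2 ratio of SMA over Con of 0.15 (44 genes, -0.32 to 0.85) and replication genes of 0.06 (26 genes, -0.40 to 0.40), beside 0.06 over all 3560 genes. Over unmixed members these medians were 0.06 and -0.25, beside 0.04. None of these cell-cycle genes was over 2-fold apart. Since only 33 of 3560 genes were over 2-fold higher in SMA (0.927%) and 26 over 2-fold lower (0.73%), nothing is read from that count. The higher genes were thus 55.9% of those past 2-fold, and 48.3% with ratios centred on the median of all genes and 66.0% with each cell weighted equally. Over unmixed members 12 of 1586 were higher (0.757%) and 6 lower (0.378%), of which 7 in all were also past 2-fold over all members. The cell-cycle inhibitor Cdkn1a stood at 430 CPM in SMA and 237 in Con (0.86, 0.65 to 1.07), but at 0.17 over unmixed members.

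Clear differences that held over unmixed members were in clustered histone genes. The replication-dependent histone genes lie in clusters, and most of their mRNAs end in a stem-loop in place of a poly(A) tail, cut by the U7 snRNP, whose Sm-like ring the SMN complex also assembles. Libraries primed on poly(A) capture their polyadenylated forms. The list was drawn up after these values were seen. Its 67 genes summed to 1525 CPM in SMA members (2700 UMIs) and 579 in Con members (596 UMIs), a log2 ratio of 1.40 (1.27 to 1.53). Of 7 genes with at least 100 UMIs, 4 were over 2-fold higher in SMA and 0 lower, beside 0.927% of all genes.

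Hist1h2bc (ENSMUSG00000018102, chromosome 13, 23684199 to 23692908, plus strand, protein-coding), a histone H2B gene, had 844 UMIs in SMA members (477 CPM) and 89 in Con members (86.5 CPM). It was found in 76.4% of SMA and 33.3% of Con members. Its log2 ratio was 2.46 (2.15 to 2.79), and 2.64 (2.03 to 3.31) over unmixed members. No single cell carried it, since the cell with most UMIs held 3.55% of them in SMA and 14.6% in Con.

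Hist1h1c (ENSMUSG00000036181, chromosome 13, 23738808 to 23740367, plus strand, protein-coding), a linker histone gene, had 651 UMIs in SMA members (368 CPM) and 78 in Con members (75.8 CPM). It was found in 65.5% and 35.8% of members. Its log2 ratio was 2.28 (1.94 to 2.64), and 2.33 (1.74 to 2.97) over unmixed members. Hist1h4i, a histone H4 gene, stood at 101 and 34.0 CPM, with a log2 ratio of 1.56 (1.03 to 2.13), and 1.05 (0.28 to 1.91) over unmixed members.

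Other histone genes were closer. Hist1h2ap stood at 110 CPM in SMA and 86.5 in Con (0.35, -0.02 to 0.73) and Hist1h1b at 98.3 and 72.9 (0.43, 0.03 to 0.84). Hist1h2ae stood at 99.4 and 45.7 CPM (1.12, 0.65 to 1.62), but at 0.43 (-0.31 to 1.24) over unmixed members. Hist1h1e stood at -0.14 (-0.68 to 0.41), and at -1.23 (-2.15 to -0.29) over unmixed members. Copies of these genes resemble each other, so reads could be split or dropped between them in the authors' counting.

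The histone difference was not limited to dividing microglia. In non-cycling microglia Hist1h2bc stood at 156 CPM in SMA and 46.2 in Con, a log2 ratio of 1.75 (1.52 to 1.99), and Hist1h1c at 80.7 and 29.5 CPM, 1.45 (1.15 to 1.76). In cycling precursors Hist1h2bc stood at 2.41 (2.26 to 2.57) and in cycling astrocytes at 2.75 (2.63 to 2.88). In non-cycling precursors and astrocytes it stood at 1.34 (1.23 to 1.44) and 1.45 (1.37 to 1.54). Hist1h1c stood at 0.76 (0.53 to 0.98) and 1.12 (0.95 to 1.30) there. In each of the 3 cell types the Hist1h2bc interval of the cycling cells lay above that of the non-cycling cells. For the rest of the list the order was the other way in microglia. Without Hist1h2bc and Hist1h1c it stood at 0.71 (0.55 to 0.87) in members, 0.41 (0.13 to 0.70) in unmixed members and 1.05 (0.84 to 1.25) in non-cycling microglia.

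**Figure D4:**
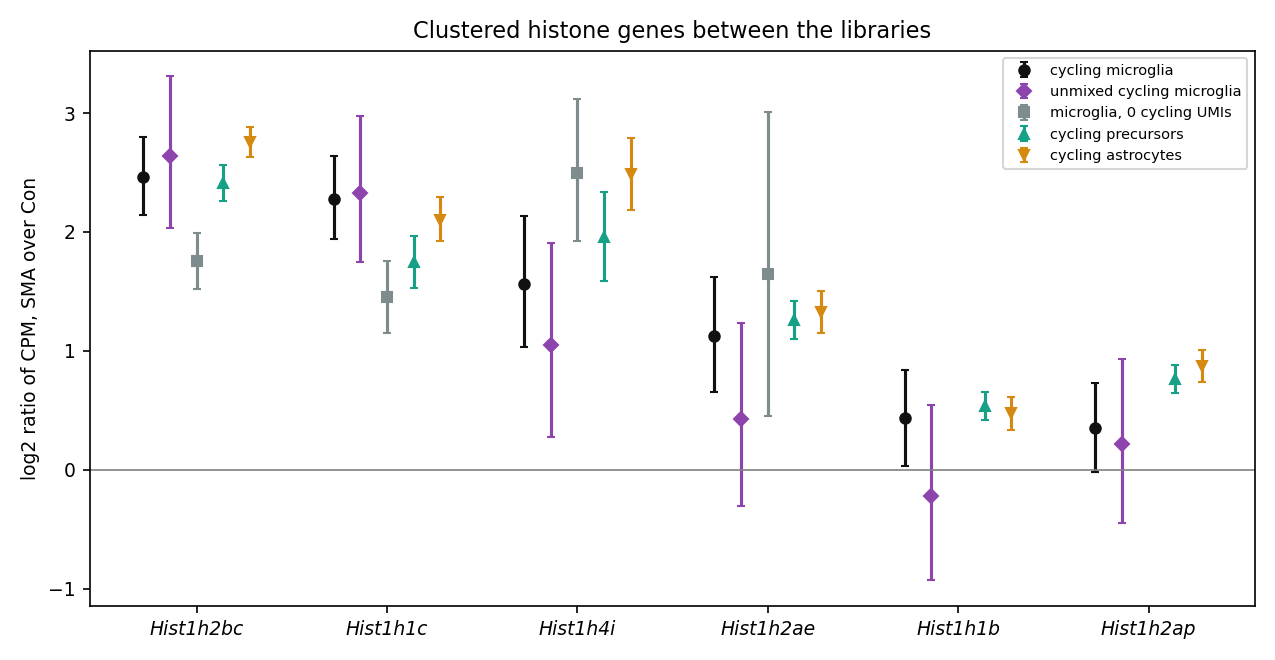
Log2 ratio of CPM of SMA over Con (y axis) for 6 clustered histone genes (x axis) in 5 populations, with exact 95% counting intervals, where at least 20 UMIs were counted. Of the 7 such genes with at least 100 UMIs in the members, Hist1h1e, at -0.14 in the members, is not shown. Hist1h2bc and Hist1h1c lie at 2.46 and 2.28 in cycling microglia and at 1.45 or above in the other 4 populations shown, which are unmixed cycling microglia, non-cycling microglia, cycling precursors and cycling astrocytes.

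Inflammatory genes stood higher in SMA over all members but not, as a list, over unmixed members, where their summed log2 ratio was 0.02 (-0.03 to 0.07). The list was also higher in SMA in non-cycling microglia, at 0.24 (0.22 to 0.25). Over unmixed non-cycling microglia it stood at 20434 CPM in SMA and 15422 in Con. Of 15 chemokine and inflammatory genes with at least 100 UMIs, 2 were over 2-fold higher and 0 lower, beside 0.927% and 0.73% of all genes, with a median of 0.42 beside 0.06, and 0.13 beside 0.04 over unmixed members. Il1a (interleukin 1 alpha) had 1255 UMIs in SMA and 343 in Con, 1.09 (0.92 to 1.26), and 0.55 (0.29 to 0.82) over unmixed members. Il1b stood at 885 and 464 CPM, 0.93 (0.78 to 1.08), and 0.25 (0.03 to 0.47) over unmixed members. The chemokine Ccl7 had 146 and 36 UMIs, 1.24 (0.70 to 1.81), of which 1 cell held 25.3% in SMA and 44.4% in Con. The chemokine Ccl3 stood at 1822 CPM in both libraries, and at -0.35 (-0.47 to -0.22) over unmixed members.

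Complement genes had a median of 0.39 over 8 genes, all 8 above 0, beside a median of 0.06 and 2075 of 3560 above 0 among all genes, and 0.30 over unmixed members. C1qa, a chain of the recognition molecule C1q, stood at 4610 and 3660 CPM (0.33, 0.28 to 0.39). The anaphylatoxin receptor C5ar1 stood at 124 and 63.2 CPM (0.98, 0.57 to 1.40), and at 1.05 (0.34 to 1.83) over unmixed members. Spp1 (osteopontin), a marker of phagocytic microglia near axon tracts, stood at 619 and 370 CPM (0.74, 0.57 to 0.91), and at 0.71 over unmixed members, but at -0.23 (-0.31 to -0.14) in non-cycling microglia. In Con 1 member held 31.2% of the Spp1 UMIs. Of 3 interferon response genes with at least 100 UMIs, 0 were over 2-fold higher in SMA and 1 was lower (beside 0.927% and 0.73% of all genes), Ifi27l2a (57 and 75 UMIs), at -1.18 (-1.70 to -0.66), and at 0.95 (0.53 to 1.37) in non-cycling microglia.

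Genes with the largest library differences were also taken across all genes. By rank of the interval bound nearest 0, the 10 higher in SMA included Acta2, Hist1h2bc, Hspb1, Hist1h1c, Gdf15, Gfap, Mt1, mt-Nd4l and Hist1h4i. Acta2, smooth muscle actin, had 106 UMIs in SMA members, of which 1 cell held 99.1%, against 0 in Con, at least 20.5-fold higher against a floor of 3 counts. In Hspb1, Gdf15 and Gfap 1 cell held 72.9%, 71.1% and 64.8% of the SMA UMIs. The differences in Acta2, Hspb1, Gdf15 and Gfap thus rest largely on single barcodes.

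Mt1 and mt-Nd4l were spread over cells. The metallothionein Mt1 stood at 1291 CPM in SMA and 527 in Con (1.29, 1.16 to 1.43), and at 1.02 (0.76 to 1.29) over unmixed members. The mitochondrially encoded mt-Nd4l, of respiratory complex I, stood at 333 and 125 CPM (1.41, 1.13 to 1.69), and at 1.26 (0.80 to 1.76) over unmixed members. In non-cycling microglia they stood at 0.58 and 1.36.

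The 10 genes lower in SMA included Ramp2, Gpr37l1, Matn4, Car2, Igfbp2, Gm3764, Bcas1, Bcan and Alas2. In Con 1 member held 58.0% of the Car2 UMIs, 41.4% of those of Ramp2 and 37.8% of those of Igfbp2. Over unmixed members each of the 9 had at most 16 UMIs in a library. There Ramp2 stood at -2.21, Gpr37l1 at -1.63, Bcas1 at -1.89 and Bcan at -1.11, and Matn4 at -0.04, Car2 at -0.21, Igfbp2 at -0.43 and Gm3764 at 0.96, but the intervals of all 8 held 0. Alas2 makes haem in erythroid cells, and Gpr37l1, Bcan and Bcas1 are known from precursors, oligodendrocytes or astrocytes. Bcan, a proteoglycan, had 116 and 168 UMIs (-1.32, -1.67 to -0.97). Marker lists of other cells were lower in SMA members for precursors (261 and 497 CPM), astrocytes (477 and 568 CPM), endothelial cells (33.3 and 141 CPM), fibroblasts (11.9 and 217 CPM) and erythroid cells (77627 and 110204 CPM). Not all lists were lower. That of oligodendrocytes stood at 982 and 829 CPM, and that of ependymal cells at 44.1 and 8.75 CPM (78 and 9 UMIs, 2.33, 1.33 to 3.51). Some further lists were also higher in SMA members, so RNA of other cells was not lower throughout. The part of all these lists in the differences was not tested. Over unmixed members Lyz2 (lysozyme), a gene of microglia and other myeloid cells, was among the 6 genes over 2-fold lower, with 189 and 209 UMIs (-1.77, -2.06 to -1.48). Over all members it stood at -0.72 (-0.96 to -0.48), and 1 Con member held 30.4% of its UMIs.

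**Figure D5:**
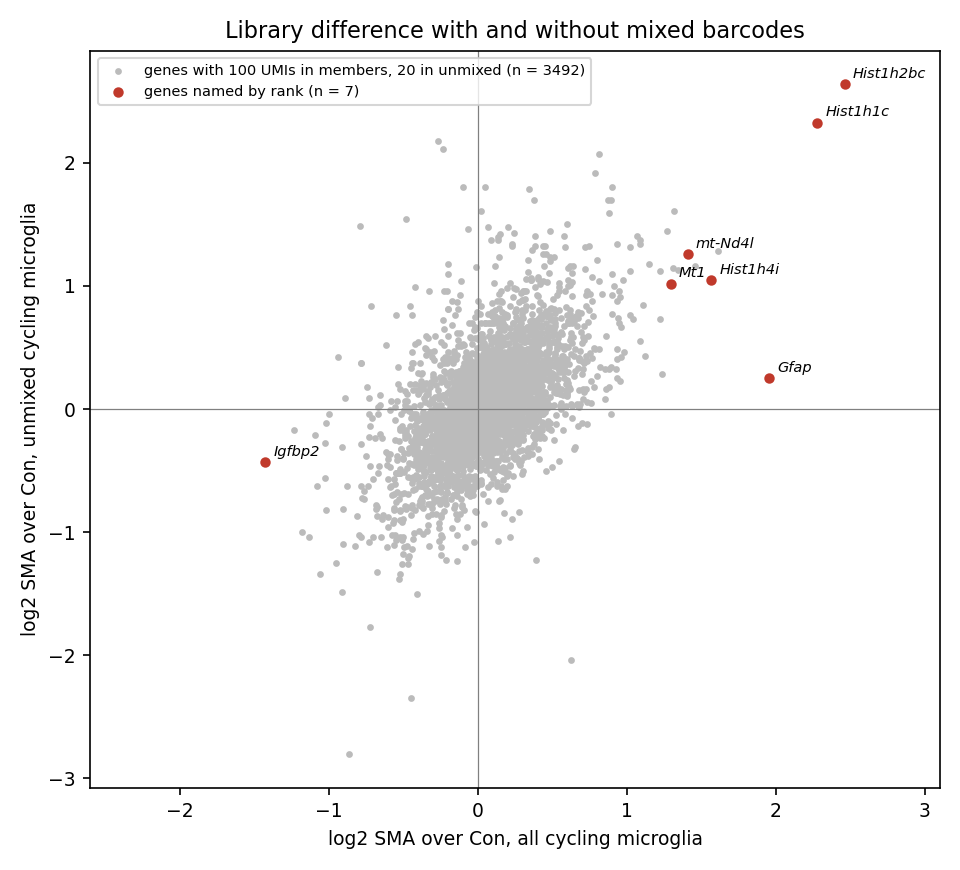
Log2 ratio of SMA over Con over all members (x axis) and over unmixed members (y axis) for 3492 genes with at least 100 UMIs in members and at least 20 in unmixed members, with the named genes that meet this marked. Hist1h2bc, Hist1h1c, Hist1h4i, Mt1 and mt-Nd4l lie above 1 on both axes, while Gfap lies at 1.95 and 0.25.

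Sex-linked transcripts differed between the libraries. Xist, the RNA that silences an X chromosome, had 0 UMIs in SMA members and 589 in Con members, at least 338-fold lower in SMA against the floor of 3 counts, and genes of the Y chromosome summed to 171 and 85.5 CPM. No label gives the sex of the pooled mice, and its part in the differences was not tested.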

How the data were processed

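The 2 whole spinal cord libraries, 1 per group, were analysed. The deposited values are raw UMI counts of genes in barcodes, which the authors obtained with Cell Ranger (4.0.0 per the file headers) from 10x Genomics 3′ version 3 libraries. The processing notes name mm10 and Seurat 3.2.2, whose output was not used here. No correction for free RNA was made here. Positions are from GENCODE M21 (GRCm38).

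Members, gene lists and alternatives were chosen with earlier results of these data known. UMIs were summed over cells per library and given as CPM. Only limits on genes (at most 4000) restrained doublets, and no caller was run. For shares the interval is exact (Clopper-Pearson). For UMI ratios it comes from the binomial distribution given the sum, and for share ratios from a normal approximation to the log ratio, at 95% throughout. Cells were thinned without replacement to 1000 UMIs. Genes needed 100 UMIs over all members. With 1 library per group, no test was possible.

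Named genes were all rule genes, genes of high CPM in each list, the 12 highest and 8 lowest outside the lists by the smaller ratio of members over non-cycling microglia, and the 10 higher and 10 lower between libraries by the interval bound nearest 0. Clustered histone genes counted as outside the lists in that choice. Genes discussed beyond these, such as Lyz2 and further clustered histone genes, were chosen after their values were seen. Some genes that these rules name are not reported here. The ratio and its interval were tested on simulated data. Python 3.11.15, numpy 2.4.6, scipy 1.17.1 and pandas 2.3.3 were used.

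The alternatives were other limits on cycling UMIs, microglial genes, genes per cell and mitochondrial UMIs, other UMI minimums, equal weight per cell, centred ratios and kept shared barcodes. Leaving out globin-rich or otherwise mixed barcodes was chosen after seeing the data.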

Additional observations from a re-analysis of the deposited data

How the results depend on the processing

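No paired analysis was possible because each group had 1 library. Results on shares and between libraries were recomputed with 1 choice changed at a time, and without mixed barcodes as alternatives chosen after the data were seen. Ratios of members over non-cycling microglia were recomputed only without mixed barcodes. The share of members was higher and the replication share lower in SMA under each alternative run. Over 17 named genes and all their alternatives, 15 recomputed ratios lay beyond the counting interval of the first and 2 turned. The share of microglia that were members was 24.3% in SMA and 16.3% in Con with at least 2 cycling UMIs, 12.2% and 8.59% with at least 5, 14.7% and 9.27% with up to 20% mitochondrial UMIs, and 14.9% and 8.88% over unmixed microglia. With shared barcodes kept it was 13% in SMA (11.5 to 14.6), beside 11.3% in Con (9.48 to 13.4). The thinned log2 ratio was 0.041 with at least 5 cycling UMIs. The replication share was 36.8% and 37.8% with at least 2 cycling UMIs, 31.7% and 32.8% with at least 5, and 33.1% and 37.3% with no upper limit on genes. It was 37.3% in Con with at least 2 of 7 microglial genes and 33.0% in SMA over unmixed members. Genes past 2-fold numbered 89 higher and 83 lower with at least 50 UMIs, 8 and 4 with at least 300, and 12 and 6 over unmixed members, where fewer genes had enough UMIs.

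Over unmixed members the list medians between libraries moved to -0.22 for the microglial rule genes, -0.054 for surface genes, -0.14 for transcription factors and 0.13 for chemokines. Gdf15 turned to -0.63 (4 and 2 UMIs, -3.43 to 2.84) and Gm3764 to 0.96 (6 and 1 UMIs, -2.08 to 6.48), both intervals holding 0. Ratios of members over non-cycling microglia without globin-rich barcodes are given for SMA and then Con. They were 1.93 and 2.19 for replication, 3.85 and 3.91 for mitosis, -0.25 and -0.41 for the microglial rule genes, -0.24 and -0.46 for surface genes and -0.18 and -0.40 for transcription factors. They were -0.15 and -0.27 for chemokines, -0.16 and -0.37 for complement and 0.58 and 0.75 for the SMN complex with Sm proteins. Over unmixed members they were 1.93 and 2.40 for replication, 4.00 and 4.03 for mitosis, -0.24 and -0.47 for surface genes, -0.29 and 0.10 for chemokines, -0.12 and -0.27 for complement and 0.62 and 0.71 for the SMN complex with Sm proteins. In Con the microglial rule genes were then at -0.35 and the transcription factors at -0.23. The cause of these shifts was not tested. Depth limits the single genes, since 7 of the 67 clustered histone genes reached 100 UMIs in the members.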
